A study of Homo sapiens with 24 samples.

Results

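The RNAs described here are the H/ACA box small nucleolar RNAs (snoRNAs) and the small Cajal body RNAs, which are the rows of the deposited gene tables whose name begins with SNORA or SCARNA. Members were chosen by this name and selected on the mean count over the 24 libraries, which had to be at least 5. This left 83 members, 75 SNORA rows and 8 SCARNA rows, of 452 rows with such names. Of the other 369 rows, 174 had no count in any library. The tables held 60658 rows in all, of which 20239 reached the same minimum and were tested. Repeated names were kept as separate rows, and 18 members share 7 names. Just above the minimum lay SNORA11 (mean count 5.17), SNORA12 (5.54), SNORA42 (5.71) and SNORA55 (5.92), and just below it lay SNORA7 and SNORA81 (4.75 each), SNORA59B (4.67) and SNORA31 (4.58).

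The libraries came from cells labelled SH-SY5Y, a neuroblastoma line, in a study of off-target effects when the circular RNA ciRS-7 is depleted. There were 4 setups, each with a knockdown arm (KD) and its own non-targeting control arm (NTC), and each of the 8 groups had 3 libraries. In the agoshRNA setup the cells received an expression vector for a hairpin RNA. Cells of the gRNA and pre-gRNA setups received CasRx-GFP, an RNA-cutting nuclease joined to a fluorescent protein, from one plasmid and the guide from another. The guide of the syn-gRNA setup was made chemically, and the labels do not describe its delivery. The labels of all libraries give a harvest 48 h from transfection. Sequencing was of poly(A) RNA, and the libraries do not keep strand. The labels do not say that the 3 libraries of a group came from separate cultures, so p-values measure the spread between these libraries, which may be technical.

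H/ACA snoRNAs fold into hairpins that pair with ribosomal RNA and direct the dyskerin complex to turn chosen uridines into pseudouridine. Small Cajal body RNAs guide modification of the spliceosomal small nuclear RNAs and reside in the Cajal body, a nuclear compartment. Most members of both families are cut out of introns of host genes and carry no poly(A) tail, so a poly(A) library holds only a remainder of them. The names do not mark a single structural class: SCARNA9 and SCARNA17 are known as box C/D RNAs, and SCARNA10 and SCARNA12 as RNAs with both kinds of box.

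The sequences of 5 members are shown because 4 of them are the most abundant SNORA rows and the fifth is a longer form, and because the H and ACA boxes define the family. They are GENCODE release 29 transcripts (GRCh38), written 5′ to 3′ as DNA. Capitals mark the letters ANANNA near the middle, which is the form of the H box, and ACA placed 3 bases before the 3′ end. Where several ANANNA matches lay in that stretch, the one nearest the middle is in capitals: SNORA64 had 3, the first from base 63 and the marked one from base 65, and the other 3 SNORA sequences had 1 each.
SNORA64: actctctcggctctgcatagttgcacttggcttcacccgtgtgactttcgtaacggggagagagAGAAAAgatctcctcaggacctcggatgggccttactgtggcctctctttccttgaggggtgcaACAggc
SNORA10: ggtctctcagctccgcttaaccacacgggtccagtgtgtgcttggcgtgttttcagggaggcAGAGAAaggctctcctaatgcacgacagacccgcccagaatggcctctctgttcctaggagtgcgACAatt
SNORA8: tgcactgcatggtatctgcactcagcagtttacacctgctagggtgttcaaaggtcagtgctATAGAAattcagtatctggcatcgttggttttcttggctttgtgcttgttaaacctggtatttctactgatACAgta
SNORA7A: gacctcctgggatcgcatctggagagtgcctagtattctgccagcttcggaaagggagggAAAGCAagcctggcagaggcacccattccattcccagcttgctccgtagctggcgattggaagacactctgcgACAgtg

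Of the 73 SNORA members with a GENCODE sequence, 53 (72.6%) had ACA 3 bases before the end and 68 (93.2%) had ANANNA within 35% to 65% of their length. The SNORD rows, the box C/D snoRNAs, held these letters in 3 (3.26%) and 25 (27.2%) of 92. The 7 SCARNA members with a sequence had them in 3 and 6. Searches were on the transcript strand only, and a match is a description of the letters. SCARNA13, which is known as a tandem H/ACA RNA, had the ACA but no ANANNA in that window.
SCARNA13: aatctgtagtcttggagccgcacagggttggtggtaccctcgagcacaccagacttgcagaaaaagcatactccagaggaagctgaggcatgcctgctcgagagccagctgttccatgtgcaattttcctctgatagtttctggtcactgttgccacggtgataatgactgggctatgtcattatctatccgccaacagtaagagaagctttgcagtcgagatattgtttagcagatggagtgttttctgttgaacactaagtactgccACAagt

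The members were between 53 and 2593 bases long with a median of 134, and 74 of 83 were between 100 and 200 bases. SNORA64 lies at chr16:2012974-2013107 and SNORA10 at chr16:2012335-2012467 (hg19, minus strand), both inside RPS2, the gene of a small-subunit ribosomal protein. SNORA8 lies at chr11:93465527-93465665 inside TAF1D, a gene for an RNA polymerase I factor. SNORA7A lies at chr3:12881811-12881949 inside RPL32. By the deposited coordinates 76 members lay inside 57 different host genes, and 11 of these hosts held at least 2 members.

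Total counts were 10994974 to 16233777 a library. The identity of the cells was checked on named markers: the noradrenergic neuroblast genes PHOX2A (mean 0.0932 CPM), DBH (0.0190 CPM) and TH (0.00261 CPM) were at or near 0, as were the neuronal genes STMN2 (0.0420 CPM) and ELAVL4 (0.0290 CPM). GATA2 (35.7 CPM) and HAND1 (21.4 CPM), transcription factors of the sympathetic lineage, were present. So were the HOX genes HOXA9 (98.2 CPM), HOXA10 (85.1 CPM) and HOXA11 (43.6 CPM), which mark position along the body axis, and PAX2 (at least 4.54 CPM in each library), a factor of the kidney lineage among others, while PAX8 (0.0138 CPM) was near 0. Of the neuroblastoma markers, PHOX2A, DBH, TH, STMN2 and ELAVL4 were thus near 0 and GATA2, HAND1, CHRNA3 and TBX2 were present. The cells are named here only by their label. CPM scales a library's counts to the same total in every library. The circular RNA itself was not measured here, since gene counts do not separate it from its locus.

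The members were higher in the syn-gRNA setup than in each other setup, in both arms, and this was the main difference in their levels. Summed over the 83 members, the 3 syn-gRNA NTC libraries held 502, 836 and 863 CPM and the 3 syn-gRNA KD libraries 628, 862 and 1121 CPM. The 18 libraries of the other setups held 123 to 333 CPM, so the 6 syn-gRNA libraries did not overlap with them. The group means were 734 ± 201 CPM (SD, n = 3) in syn-gRNA NTC and 870 ± 247 CPM (SD, n = 3) in syn-gRNA KD. The other groups had means of 177 ± 25.5 CPM (pre-gRNA NTC), 199 ± 16.3 CPM (pre-gRNA KD), 207 ± 87.6 CPM (agoshRNA KD), 212 ± 72.9 CPM (agoshRNA NTC), 226 ± 97.7 CPM (gRNA KD) and 229 ± 66.6 CPM (gRNA NTC), each with its SD and n = 3. The syn-gRNA mean was 3.21 to 4.14 times the others in NTC and 3.85 to 4.37 times in KD. In bulk RNA, a change in the number of cells with an RNA and a change in its amount per cell cannot be told apart. Any handling shared by the libraries of a setup goes with that setup. A difference in the cells thus cannot be told apart from one in library preparation, such as how much RNA without a poly(A) tail was kept.

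Row by row, the test was the Wald test of DESeq2 on all 24 libraries, with p-values adjusted over all 20239 rows and called below 0.05. In NTC, 25 of 83 members were called higher in syn-gRNA than in agoshRNA, where 0.988% of all rows were called higher. Against gRNA 30 members were called higher (0.815% of all rows), and against pre-gRNA 51 (1.84%). In KD the counts were 47 against agoshRNA (1.61%), 34 against gRNA (1.05%) and 50 against pre-gRNA (1.67%). No member was called lower in any of these 6 comparisons, where 0.81%, 0.464% and 1.03% of all rows were called lower in NTC and 1.4%, 0.405% and 0.598% in KD.

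The number of calls depended on the tool. On simulated counts DESeq2 made more false calls than its nominal level in most runs, while edgeR stayed close to or under it. The simulation covered few runs, gave all rows the same spread and changed only rows with high counts. It is a caution for the DESeq2 counts given here, and it does not give their share of false calls. With edgeR's quasi-likelihood test the calls in NTC were 0 against agoshRNA, 0 against gRNA and 18 against pre-gRNA, and in KD they were 20, 10 and 25. At an unadjusted p below 0.05, edgeR gave 59, 59 and 62 members in NTC, and DESeq2 gave 61, 61 and 62. Single libraries also decided the counts: in NTC they fell to 1 against agoshRNA and 2 against gRNA without syn-gRNA library C, to 2 and 3 without syn-gRNA library B, and to 2 and 3 without library A of agoshRNA or gRNA. Without library C of agoshRNA or gRNA they fell to 12 and 5. The shares of all rows under these settings are not given here. Whether members lost more calls than other rows did was not tested.

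The size of the difference was steadier than the calls. The median log2 difference of the members was 1.65 against agoshRNA, 1.60 against gRNA and 2.00 against pre-gRNA in NTC, where the medians of all rows were 0.00, -0.02 and -0.05. In KD the members' medians were 1.96, 1.85 and 2.03, beside -0.02, -0.04 and -0.06 for all rows. The log2 difference was positive for 79, 77 and 81 of 83 members in NTC and for 80, 79 and 80 in KD, and it was positive in all 6 comparisons for 77. All 3 syn-gRNA libraries lay above all 3 of the other group for 60, 61 and 61 members in NTC, beside 9.92%, 11.8% and 13.6% of all rows. In all 6 comparisons at once this held for 46 members, and for 520 of all rows (2.57%).

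The rule for members used the mean over all 24 libraries, so a row low elsewhere could pass through the syn-gRNA libraries. The 9 rows of this kind are SNORA11, SNORA19, SNORA22, SNORA23, SNORA28, SNORA36A, SNORA50, SNORA71D and 1 SNORA70 row, whose means over the other 18 libraries were under 5. For the 74 members at or above 5 in those 18 libraries, the medians were 1.60, 1.54 and 1.89 in NTC and 1.87, 1.81 and 1.99 in KD. The calls among them were 22, 27 and 44 in NTC and 42, 32 and 46 in KD.

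**Figure D1:**
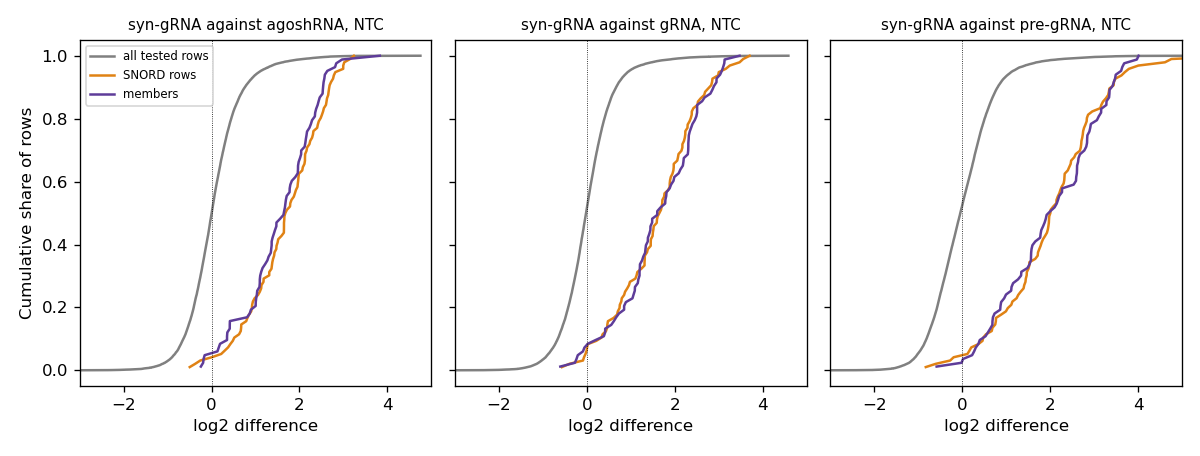
Cumulative share of rows (vertical axis) by log2 difference of syn-gRNA against each other setup in NTC (horizontal axis), for all tested rows (grey), SNORD rows (orange) and members (purple). The member curves have medians of 1.65, 1.60 and 2.00, and the SNORD curves 1.70, 1.67 and 2.01.

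The 8 most abundant members held 44.3% of all member counts. SNORA64, which guides pseudouridylation of ribosomal RNA, had the highest mean (30.3 CPM). It stood at 40.9, 61.1 and 63.7 CPM in the syn-gRNA NTC libraries and at 14.6, 19.1 and 26.0 in agoshRNA NTC, 19.7, 31.7 and 15.4 in gRNA NTC, and 16.6, 25.7 and 12.6 in pre-gRNA NTC. Each syn-gRNA library of SNORA64 was above every other NTC library. Its log2 difference was 1.48 ± 0.48 (SE) against agoshRNA (DESeq2 adjusted p = 0.0853), 1.45 ± 0.48 against gRNA (adjusted p = 0.107) and 1.56 ± 0.48 against pre-gRNA (adjusted p = 0.0456), so 1 of the 3 passed in NTC. With each library of the pair left out in turn that call held in 2 of 6 fits.

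SNORA10, the other RPS2 member, was called in all 6 comparisons. It stood at 32.8, 49.5 and 55.8 CPM in the syn-gRNA NTC libraries and at 36.7, 48.5 and 60.7 in syn-gRNA KD. The gRNA libraries held 13.9, 21.2 and 9.08 CPM in NTC and 12.7, 22 and 9.18 in KD, well apart from them. The log2 difference of SNORA10 against gRNA was 1.78 ± 0.48 (SE) in NTC (DESeq2 adjusted p = 0.0234) and 1.77 ± 0.48 in KD (adjusted p = 0.0218). These calls were not firm: with each library left out in turn SNORA10 was called in 12 of 36 fits over the 6 comparisons, and edgeR called it in none (adjusted p = 0.0760 to 0.146). Of the 8 most abundant members, edgeR called 0 in any of the 6 comparisons.

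SNORA8 and SNORA18 share the host TAF1D with SNORA25, SNORA32, SNORA40 and SNORA1. SNORA8 stood at 41.5, 58.8 and 51.2 CPM in syn-gRNA NTC and at 4.79, 22.8 and 18.4 in agoshRNA NTC, where library A was the lowest. The groups of SNORA8 did not overlap, and its log2 difference against agoshRNA was 1.68 ± 0.67 (SE; DESeq2 adjusted p = 0.208). SNORA18 and SNORA40 also had every syn-gRNA library above the others in all 6 comparisons and were called in none. Their NTC medians were 1.36 and 1.21.

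SNORA4, in the translation factor gene EIF4A2, stood at 31.3, 47.1 and 46.7 CPM in syn-gRNA NTC and at 4.07, 2.19 and 8.73 in pre-gRNA NTC. Its log2 difference was 3.16 ± 0.78 (SE; DESeq2 adjusted p = 0.00565). SNORA70 in the ribosomal protein gene RPL10 (row ENSG00000207165.1) stood at 14.1, 24.6 and 25.1 CPM in syn-gRNA NTC against 7.83, 9.54 and 7.87 in agoshRNA NTC, a log2 difference of 1.35 ± 0.39 (adjusted p = 0.0402). With 1 library left out, SNORA4 against pre-gRNA in NTC and SNORA70 against agoshRNA in NTC were each called in 2 of 6 fits.

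SNORA7A and SNORA7B are 98.6% identical, so reads of one may be assigned to the other. SNORA7A stood at 25.7, 54.2 and 39.1 CPM in syn-gRNA NTC and SNORA7B at 1.07, 3.37 and 2.76. Both were higher in syn-gRNA KD than in agoshRNA KD, by a log2 difference of 1.95 ± 0.53 (SE; DESeq2 adjusted p = 0.0152) for SNORA7A and 2.21 ± 0.54 (adjusted p = 0.00531) for SNORA7B. In NTC against agoshRNA the difference was 1.83 ± 0.53 for SNORA7A (adjusted p = 0.0369) and 1.00 ± 0.53 for SNORA7B (adjusted p = 0.454). With 1 library left out, the KD calls held in 3 of 6 fits for each of them, and that of SNORA7A in NTC in 2 of 6.

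**Figure D2:**
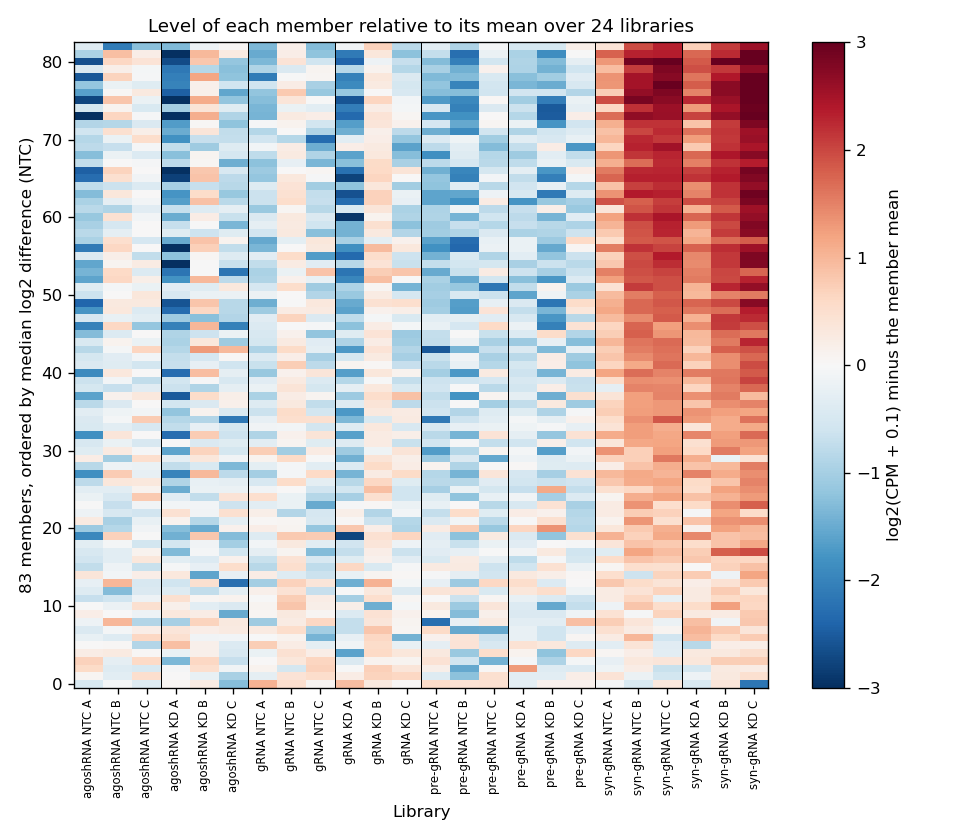
Level of each of the 83 members (rows, ordered by their median log2 difference in NTC) in each of 24 libraries (columns), as log2(CPM + 0.1) minus the member's mean over the libraries. The 6 syn-gRNA columns at the right are higher (red) for most rows, and the lowest rows show no such step in NTC.

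The largest differences were those of SNORA66 in the ribosomal protein gene RPL5, SNORA20 in the chaperonin gene TCP1, SNORA19, SNORA28 and SNORA71D. SNORA66 (row ENSG00000207523.1) stood at 6.11, 18.6 and 19.7 CPM in syn-gRNA NTC and at 0.924, 0.501 and 1.61 in pre-gRNA NTC, a log2 difference of 3.97 ± 0.82 (SE; DESeq2 adjusted p = 0.000475). SNORA20 stood at 3.56, 5.24 and 5.39 CPM in syn-gRNA NTC and at 0.554, 0.125 and 0.835 in pre-gRNA NTC, a log2 difference of 3.34 ± 0.85 (adjusted p = 0.0084). With 1 library left out, these calls held in 6 of 6 fits for SNORA66 and in 2 of 6 for SNORA20, and over the 6 comparisons edgeR called SNORA66 in 2 and SNORA20 in 0. SNORA19, SNORA28 and SNORA71D are among the rows that passed the minimum only through the syn-gRNA libraries. These 5 were chosen for their size in this contrast, so their values describe it.

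At the other end, SNORA12, SNORA42, SNORA11 (row ENSG00000221164.1) and SNORA75 (row ENSG00000212440.1) had NTC medians of -0.58, -0.16, -0.09 and -0.18 over the 3 comparisons and were called in none. In KD their medians were -0.46, -0.34, 1.01 and 0.48, so those of SNORA11 and SNORA75 were positive there. Another SNORA75 row, ENSG00000206885.1, had medians of 3.03 in NTC and 3.28 in KD and was called in 5 of the 6 comparisons. The low SNORA75 row is 97.3% and 98.7% identical to other SNORA75 members, so reads of one may be assigned to another. SNORA12 stood at 0.335, 0.225 and 0.460 CPM in syn-gRNA NTC and at 0.825, 0.529 and 0.369 in gRNA NTC, and these groups overlapped. SNORA12, SNORA42, SNORA11 and the low SNORA75 row held few counts. Of the 35 members with a mean under 20 counts, 15 were called at least once, beside 23 of 24 with 20 to under 60 counts and 19 of 24 with 60 or more.

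The SCARNA members had smaller median differences than the SNORA members. Their medians were 0.68, 0.72 and 0.63 in NTC and 0.83, 0.91 and 0.87 in KD, and those of the SNORA members were 1.69, 1.79 and 2.18 in NTC and 2.06, 2.06 and 2.23 in KD. The gap between the families was not tested. Of the 8 SCARNA rows, 1, 1 and 2 were called in NTC and 2, 1 and 2 in KD.

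SCARNA4, a guide RNA of the Cajal body, was called in all 6. It stood at 1.61, 4.04 and 3.68 CPM in syn-gRNA NTC and at 0.481, 0.378 and 0.0739 in gRNA NTC, with no overlap, a log2 difference of 3.47 ± 0.65 (SE; DESeq2 adjusted p = 0.000308). That call held in 6 of 6 fits with 1 library left out, and edgeR called SCARNA4 in 3 of the 6 comparisons. Its host KIAA0907 had a median log2 difference of 1.05 in NTC and 1.25 in KD and was called higher in 1. SCARNA13 in SNHG10 was called in 3, and in 0 by edgeR. Its host SNHG10 was itself called higher in 3 of the 6, with a median log2 difference of 0.68 in NTC and 0.66 in KD, and the part of either host in its member's difference was not tested. It stood at 5.5, 6.82 and 7.17 CPM in syn-gRNA NTC and at 1.72, 1.69 and 2.44 in pre-gRNA NTC, a log2 difference of 1.77 ± 0.44 (adjusted p = 0.00684), called in 3 of 6 fits with 1 library left out.

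The other 6 SCARNA rows were called in none of the comparisons. SCARNA12 in PHB2, the most abundant SCARNA row per length (26.0 RPKM, which is CPM per kilobase of length, beside 12.9 for SCARNA13), stood at 7.92, 8.91 and 10.6 CPM in syn-gRNA NTC and at 7.42, 9.07 and 4.06 in gRNA NTC, which overlapped. SCARNA22 in NSD2 stood at 1.01, 1.72 and 0.987 CPM in syn-gRNA NTC and at 2.20, 1.51 and 1.03 in gRNA NTC, a log2 difference of -0.21 ± 0.49 (DESeq2 adjusted p = 0.974). SCARNA8, SCARNA9 and SCARNA10 had NTC medians of 1.48, 0.42 and 0.37. The row named SCARNA17 is 2593 bases long, far beyond the guide RNA, and had an NTC median of -0.06. GENCODE release 29 lists the same gene as SNHG22, of type antisense, so its counts are not those of a guide RNA alone. This row is included in the SCARNA medians.

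No member was called between knockdown and control in any setup. DESeq2 called 0 of 83 members in each of the 4 setups, fitted on the 6 libraries of the setup, and 0% of all rows were called. At an unadjusted p below 0.05 there were 0 members in agoshRNA, gRNA and pre-gRNA and 2 in syn-gRNA, and edgeR gave 0 in each setup by either count. The members' median log2 difference of KD against NTC was -0.04 in agoshRNA, 0.05 in gRNA, 0.11 in pre-gRNA and 0.26 in syn-gRNA, beside 0.05, 0.03, 0.01 and 0.00 for all rows. It was positive for 32, 50, 59 and 72 of the 83. The median SE of a member was 0.77, 0.67, 0.67 and 0.43 in these fits, which do not use the library letters. Differences of the size of these medians were thus not detectable for single members in such fits.

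The smallest unadjusted p-values in syn-gRNA were those of SNORA25 and SNORA7B. SNORA25 stood at 12.2, 14.4 and 24.2 CPM in KD and at 7.65, 12.1 and 13.3 in NTC, which overlapped, a log2 difference of 0.60 ± 0.27 (SE; DESeq2 adjusted p = 1). SNORA7B stood at 2.41, 5.13 and 5.82 CPM in KD and at 1.07, 3.37 and 2.76 in NTC, a log2 difference of 0.87 ± 0.41 (adjusted p = 1). In agoshRNA the smallest p-values were those of SNORA19 and SNORA22, with 0, 0.144 and 0.0856 CPM in KD and 0.228, 0.395 and 0.325 in NTC for SNORA19. Its groups did not overlap, on few counts, and its log2 difference was -2.02 ± 1.31 (adjusted p = 1). In gRNA, SNORA71A stood at 1.19, 1.27 and 1.08 CPM in KD and at 0.962, 1.06 and 0.369 in NTC, and in pre-gRNA, SNORA51 stood at 0.853, 1.63 and 0.643 CPM in KD and at 0.678, 0.626 and 0.257 in NTC. These were among the smallest p-values there, with log2 differences of 0.67 ± 0.61 and 1.01 ± 0.72 (DESeq2 adjusted p = 1 for both). The groups of SNORA71A did not overlap and those of SNORA51 did. Libraries that share a column letter deviated together, so the arms were also compared letter by letter. SNORA25 and SNORA7B were higher in syn-gRNA KD than in NTC in 3 of 3 letters, and with the letter as a replicate block their log2 differences were 0.59 ± 0.19 (unadjusted p = 0.00171) and 0.92 ± 0.34 (unadjusted p = 0.00696), with a DESeq2 adjusted p of 1 for both. The summed member level was higher in KD in 3 of 3 letters in syn-gRNA and in pre-gRNA, and in 1 of 3 in agoshRNA and in gRNA. In syn-gRNA 37 members were higher in KD in all 3 letters and 0 were lower in all 3. In pre-gRNA these counts were 19 and 6, in agoshRNA 6 and 15, and in gRNA 6 and 14. With the block 10 members in syn-gRNA and 0 in each other setup had an unadjusted p below 0.05, and none was called. These counts by letter and with the block were not made over all rows. A shift of a whole library can move many members at once, so the counts by themselves show no KD effect. The authors' deposited tables gave an adjusted p of 1 for all 83 members in each setup. Their unadjusted p was below 0.05 for 2 members in agoshRNA (SNORA22 and SNORA19), 0 in gRNA and in pre-gRNA, and 1 in syn-gRNA (SNORA7B).

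**Figure D3:**
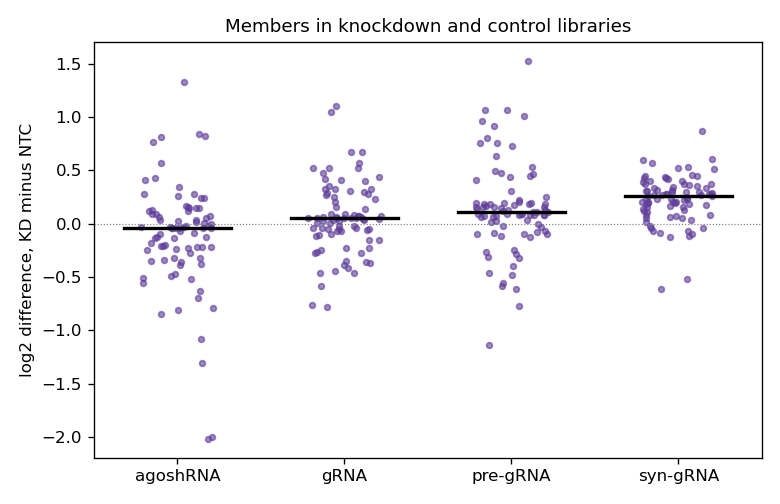
Log2 difference of KD minus NTC (vertical axis) for each of the 83 members in the 4 setups (horizontal axis); points are members and black lines medians, at -0.04, 0.05, 0.11 and 0.26. No member passed the adjusted threshold in any setup.

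The KD difference was also compared between setups, in 1 model of the 24 libraries. DESeq2 called 0 members in each of the 6 comparisons (0% of all rows), with at most 1 member at an unadjusted p below 0.05, and edgeR called 0 with at most 2. Among the 3 setups other than syn-gRNA, 0 members were called in each of 6 comparisons by DESeq2 and by edgeR. Of all rows, 0.0494%, 0.0346% and 0% were called in NTC and 0.0395%, 0.0445% and 0% in KD, in the order agoshRNA against gRNA, agoshRNA against pre-gRNA and gRNA against pre-gRNA. The counts at an unadjusted p below 0.05 were 0, 4 and 0 by DESeq2 in NTC and 1, 2 and 0 in KD. The medians were 0.08, 0.47 and 0.37 in NTC and -0.02, 0.22 and 0.25 in KD.

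Host genes had smaller differences than most members inside them. Of the 57 hosts, 3 were called in at least 1 of the 6 syn-gRNA comparisons, and the median over hosts of their NTC difference was 0.24. In NTC, 72 of 76 members with a host had a larger median difference than the host. TAF1D, the host of 6 members, had a median of 1.34, and its members ranged from 1.21 to 2.32. The 20 members inside ribosomal protein genes had a median of 2.35 and the 56 in other hosts 1.62. The 7 members with no host had a median of -0.06, which is the value of the long row named SCARNA17. Among the others are SNORA75 rows that are 96% to 98.7% identical to each other. Hosts were sought on the strand of the member, though the libraries do not keep strand. The sets in ribosomal protein genes, in other hosts and with no host also differed in level, with median mean counts of 69.0, 19.6 and 8.04. Across members the NTC difference rose with mean CPM (Spearman rho 0.41). Both level measures cover the syn-gRNA libraries, so a larger difference itself raises them. The rho thus does not by itself show that the difference depends on level. The part of level in the gaps between the sets was not tested.

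By GENCODE release 29, 37 members lay in an intron and had an NTC median of 1.48, and 37 overlapped an exon of an annotated transcript and had one of 1.97. Their median mean counts were 13.6 and 63.0, and the part of this in the gap was not tested. Reads of a host exon may be counted for a member that overlaps it. Both RN7SK rows, which overlap by 328 bases, held the same count in all 24 libraries, which shows that reads over 2 rows were counted for each. The share of host reads in the members was not tested.

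**Figure D4:**
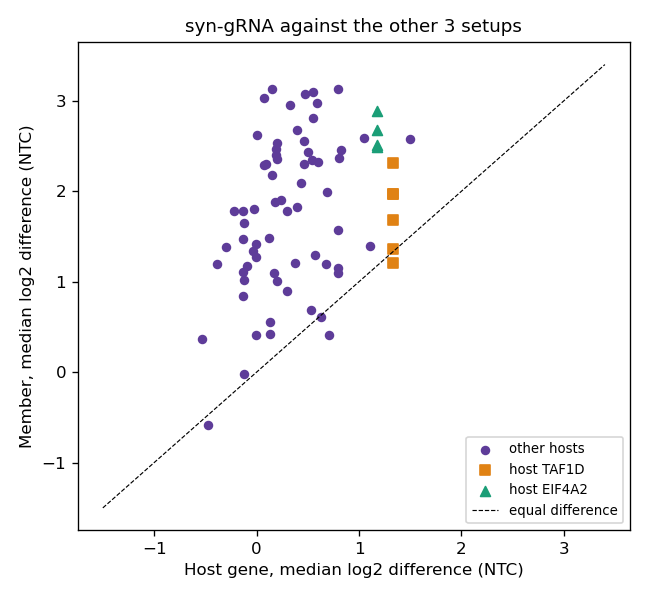
Median log2 difference of syn-gRNA against the other 3 setups in NTC for 76 members (vertical axis) and for the host gene of each (horizontal axis); squares are members in TAF1D and triangles those in EIF4A2. Of the 76 points, 72 lie above the dashed line of equal difference.

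The box C/D snoRNAs were also higher in the syn-gRNA setup, with similar medians. Of 96 SNORD rows, 40, 27 and 55 were called higher in NTC and 53, 49 and 52 in KD, with medians of 1.70, 1.67 and 2.01 in NTC. The difference is thus not shown to be particular to the H/ACA family. Of the 88 rows called higher in all 6 comparisons (0.435% of all rows), 19 were members, 25 were SNORD rows and 44 were neither.

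The proteins that bind and process these RNAs did not pass the test. None of 22 genes was called in any of the 6 syn-gRNA comparisons by DESeq2, with 1 to 3 at an unadjusted p below 0.05 in each. These were the 4 of the H/ACA particle (DKC1, NHP2, NOP10, GAR1), 4 assembly factors, 5 Cajal body genes such as COIL, and 9 genes of RNA end processing and debranching. The log2 differences of the particle's own genes ran from -0.19 to 0.31 for NHP2, from -0.05 to 0.36 for DKC1, from 0.04 to 0.27 for NOP10 and from 0.09 to 0.39 for GAR1. Larger values came from genes that act around the particle. NAF1, an assembly factor of the H/ACA particle, was at 0.78 to 1.12, with an unadjusted p below 0.05 in all 6 comparisons and a lowest DESeq2 adjusted p of 0.0920. DIS3, a nuclease of the exosome, was at 0.54 to 0.93 and PABPN1, a nuclear poly(A)-binding protein, at 0.42 to 0.72. The assembly ATPases RUVBL1 and RUVBL2 were at -0.67 to -0.30 and -0.85 to -0.29. Summed over the 22 genes, the 6 syn-gRNA libraries held 2092 to 2186 CPM and the other 18 held 1607 to 2114 CPM, which overlapped.

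Most of the other RNAs without a poly(A) tail that were tested were also higher in syn-gRNA, but not all. Of 21 rows listed for this class, 8 reached the minimum, and RN7SK holds 2 of these. The log2 difference was positive for 7, 7 and 7 of the 8 in NTC and for 7, 7 and 6 in KD. Their medians were 1.38, 1.19 and 1.55 in NTC and 1.22, 0.33 and 1.33 in KD. DESeq2 called 1, 0 and 2 of them higher in NTC and 2, 0 and 1 in KD, and it called 1 lower against agoshRNA in each arm. Their summed level was 262 to 293 CPM in the 6 syn-gRNA libraries and 67.5 to 232 CPM in the other 18, with no overlap, and this sum counts the reads of RN7SK in both of its rows. RN7SL1 and RN7SL2, near-identical RNAs of the signal recognition particle, were higher by 1.06 to 1.90 and 0.87 to 1.88 on the log2 scale, called in 3 and 2 of the 6 comparisons. RNU6-1, a U6 spliceosomal RNA, was lower against agoshRNA, by a log2 difference of -5.44 ± 0.54 (SE; DESeq2 adjusted p = 2.69e-19) in NTC and -5.42 ± 0.56 (adjusted p = 8.37e-18) in KD, and was called in none of the other 4. Against gRNA and pre-gRNA it was at -0.91 and -0.09 in NTC and at 0.32 and -0.31 in KD. RMRP, the RNA of RNase MRP, ran from -1.98 to 1.48 and RPPH1, the RNA of RNase P, from 0.33 to 0.84, and neither was called. The nuclear RNAs MALAT1, NEAT1 and KCNQ1OT1 had positive differences in all 6 and were called in 1, 2 and 0, and together they held 1525 to 3485 CPM in the syn-gRNA libraries and 160 to 1926 CPM in the others, which overlapped. The summed level of the replication-dependent histone genes was 325 to 626 CPM in the syn-gRNA libraries and 132 to 462 CPM in the others, which also overlapped. The part of these in the members' difference was not tested. Library A of a group had the lowest summed member level in all groups. The comparisons of syn-gRNA with other setups were fitted without the letter, so spread between letters is part of their error. The labels do not say whether a letter links libraries of different setups.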

How the data were processed

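Poly(A) RNA sequencing libraries were analysed from the tables the authors deposited. Raw read counts per gene were deposited for 24 libraries, in 4 tables with identical counts. Per the submitters' processing notes, Trim Galore, STAR 2.7.3a, featureCounts and DESeq2 were used with hg19; the annotation release is not given in the sources used here. The log2 fold changes and p-values of KD against NTC were made by the authors, per the file headers. The 24 normalized-count columns of each table were not used.

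Counts were tested with DESeq2 1.42.0 in R 4.3.3, with its own size factors and no covariates: KD against NTC on the 6 libraries of a setup, and setups within an arm in 1 model of 24 libraries. Testing covered rows whose mean count reached 5, independent filtering was off, and adjusted p-values (Benjamini-Hochberg) below 0.05 were called. edgeR 4.0.16 was an alternative, with TMM factors, other filters, other libraries and each library left out. Fits were tested on simulated data. Large changes were recovered and smaller ones were often missed, so that the recovery mark first set over both sizes was narrowly missed and was replaced by one on large changes. The share of false calls was above the nominal level in most DESeq2 runs and close to or under it in edgeR runs. This is a caution for the counts of DESeq2 calls in the results. Simulated rows all had the same spread and only rows with high counts were changed, so the share among members is not known. Column letters served as a replicate block in an alternative for KD against NTC and for the difference of the KD effect. They were not used in the comparisons of setups within an arm. The letters come from the table headers, and same-letter KD and NTC libraries deviated together from their group means in all 12 pairs (r from 0.19 to 0.88 across rows).

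The members and lists were chosen with earlier results of these data known. Named members are the 8 with the highest mean CPM, all SCARNA rows, the 4 with the largest and the 4 with the smallest syn-gRNA difference in each arm, and the 2 with the smallest p of KD against NTC in each setup. The table columns are lettered and the labels are numbered, with nothing linking letter to number, so libraries are named by setup, arm and letter.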

Additional observations from a re-analysis of the deposited data

How the results depend on the processing

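Each result was recomputed under the alternatives, and all but 10 of the counts and medians computed without leaving a library out kept their direction and stayed within 1.5 times (counts) or 1 SD (medians). With edgeR the members called in NTC fell to 0 against agoshRNA, 0 against gRNA and 18 against pre-gRNA, and in KD to 20, 10 and 25. With no filter on low counts they were 14 against agoshRNA and 17 against gRNA in NTC. With only the 6 libraries of the pair they were 40 and 48. The cause was not tested, and the shares of all rows called under these settings are not given. With 1 library left out, the calls ranged in NTC from 1 to 29 (agoshRNA), 2 to 35 (gRNA) and 16 to 50 (pre-gRNA), and in KD from 15 to 56, 8 to 44 and 21 to 49. Leaving out syn-gRNA library B or C, or library A of the other setup, lowered the counts by over 1.5 times in every one of these comparisons, and so did library C of agoshRNA and gRNA. The medians then ranged in NTC from 1.35 to 1.91, 1.5 to 2.01 and 1.79 to 2.18, and in KD from 1.72 to 2.48, 1.72 to 2.19 and 1.90 to 2.28. The KD against NTC medians ranged from -0.58 to 0.19 (agoshRNA), -0.36 to 0.37 (gRNA), -0.012 to 0.24 (pre-gRNA) and -0.011 to 0.46 (syn-gRNA), with 0 calls throughout, as for the comparisons among the other setups and of the KD difference. The minimum set on the 18 other libraries was chosen after seeing the data.

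With the column letter as a replicate block DESeq2 called 0 members in each setup and 0 for each difference of the KD effect. The block thus changed no call. An unadjusted p below 0.05 was reached by 10 members in syn-gRNA and 0 in the others, a count not made over all rows. The medians were -0.17, -0.01, 0.11 and 0.26.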
